A study of Cricetulus griseus with 6 samples.

Results

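The RNA levels of 9 target genes of transforming growth factor beta (TGF-beta) and bone morphogenetic protein (BMP) signaling were followed across 6 conditions. The genes are Ccn2, Thbs1, Tagln, Snai1, Id1, Id2, Id3, Smad6 and Smad7, and they are 9 of the 14899 genes that the array annotation names with exactly 1 symbol for a transcript cluster. A transcript cluster is the set of probes read out together for 1 transcript or group of transcripts, and where a gene had several, the one with the highest mean signal was used. CHO-K1, a line from the ovary of the Chinese hamster labelled wild type, was left untreated or was given trastuzumab + pertuzumab. CHO-K6, labelled as a CHO line that stably overexpresses human HER2, was left untreated or was given trastuzumab, pertuzumab or trastuzumab + pertuzumab. Both are therapeutic antibodies that bind the extracellular part of HER2. The antibody dose was 10 µg/mL and the time was 24 h. Whether the combination held 10 µg/mL of each antibody or in all is not clear from the labels. All dishes had first spent a day in low serum before the change to fresh medium with more serum. The authors list selection with G418 for CHO-K6 cultures and none for CHO-K1. Whether the dishes for the arrays contained it is not stated. CHO-K6 was the 1 HER2-expressing line measured, and the untreated dishes received no control antibody. The labels do not say whether CHO-K6 is a clone, but the paper calls a further HER2-expressing line, CHO-K13, another clone, which implies it. With 1 such line, HER2 and the choice of clone cannot be told apart.

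TGF-beta and BMP ligands bring together type II and type I receptor kinases at the cell surface. The activated receptors phosphorylate SMAD proteins, mainly SMAD2 and SMAD3 for TGF-beta and SMAD1, SMAD5 and SMAD9 for BMP, which enter the nucleus with SMAD4 and act on target genes. Ccn2, Thbs1, Tagln and Snai1 are classically induced by TGF-beta, the ID genes by BMP, and Smad6 and Smad7 encode inhibitory SMADs that close a negative feedback loop. Many of these genes also respond to serum, to mechanical signals through YAP and SRF, and to growth factor receptors, so none of them reports on SMAD signaling alone.

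The values are log2 signals of 29700 transcript clusters on 6 arrays, with 1 array per condition, so that no difference has a replicate check and none was tested. The median log2 signal per array was 5.89 to 5.91. The threshold for counting a cluster as higher or lower was 2-fold, which is 1 on the log2 scale. A second yardstick is the central 95% of the differences of the 500 clusters with the closest mean signal in the same comparison, called the like-signal range below. By its construction it leaves out about 5% of all clusters in every comparison and is no error of measurement. RNA came from whole dishes, in which fewer cells expressing a gene and less RNA per cell cannot be told apart. The labels call the cells epithelial. Of the 4 epithelial markers measured, Epcam, Krt8 and Krt18 lay below 5 on every array, below the array medians, and Cdh1 lay between 5.86 and 6.49, near or above them. Of the mesenchymal markers, the filament gene Vim lay between 13.19 and 13.30, Pdgfrb between 8.48 and 8.67, Col3a1 between 7.27 and 8.57, Col1a1 between 5.78 and 6.12, near the medians, and Cdh2 between 5.09 and 5.40, below them. The cluster annotated to Erbb2, the hamster counterpart of HER2, had log2 signals of 8.50 and 8.64 in CHO-K1 and of 8.80 to 9.21 in CHO-K6, and how far it reads the human transcript was not tested.

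All 9 target genes had lower signals in CHO-K6 than in CHO-K1. The 9 were chosen with earlier results of these data known, so the counts beside shares of all clusters are description only. In the untreated arrays the median difference was −0.97 on the log2 scale, with values from −1.77 to −0.30, against a median of −0.03 over all clusters. A difference below 0 was found for 53.2% of all clusters in this comparison. Of the 9 genes, 4 were lower by 2-fold or more and none was higher, where 0.63% of all clusters, and 0.855% of the 14499 clusters whose mean log2 signal reached 6, were lower to that extent and 1.47% of all clusters were higher. These 4 were Ccn2, Thbs1, Tagln and Snai1, and Id1 lay just short of the threshold. The same 4 and Id1 lay below their like-signal ranges, which 2.53% of all clusters did, and the differences of Id2, Id3, Smad6 and Smad7 lay within theirs.

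**Figure D1:**
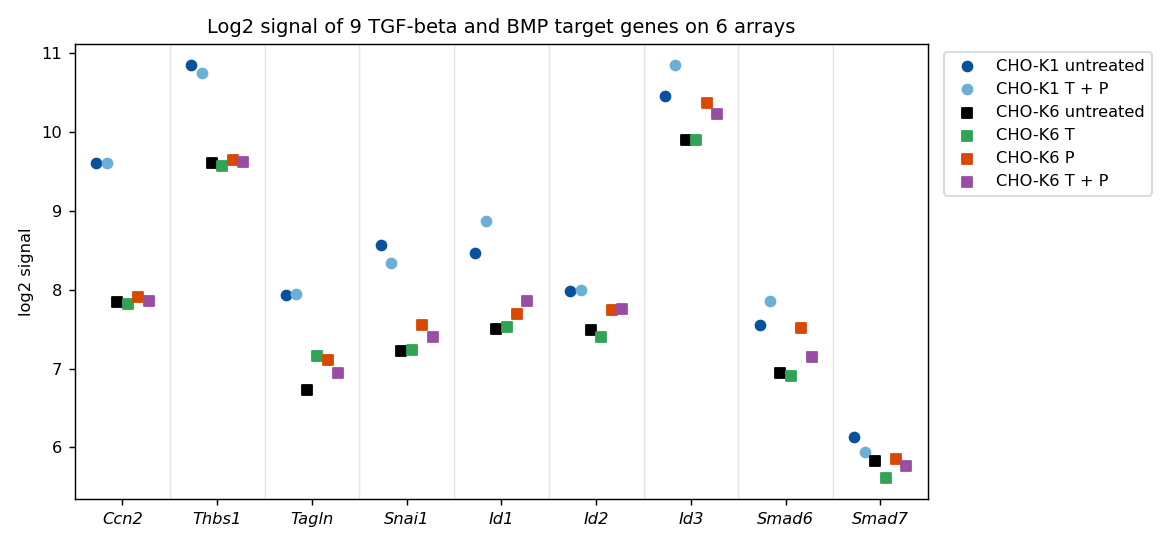
Log2 signal (vertical axis) of each of the 9 genes on the 6 arrays, with circles for the 2 CHO-K1 arrays and squares for the 4 CHO-K6 arrays, 1 array per condition (T, trastuzumab, P, pertuzumab). For every gene all squares lie below both circles, by 1.69 for Ccn2 and by 0.04 for Smad6 at the narrowest point.

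The arrays treated with trastuzumab + pertuzumab allow the same comparison between the lines with separate arrays. There the 9 genes again were all lower in CHO-K6, with a median of −0.94 and values from −1.75 to −0.18, where 56.4% of all clusters lay below 0. Again 4 genes were lower by 2-fold or more, against 0.848% of all clusters (2.18% were higher), and this time they were Ccn2 (−1.75), Thbs1 (−1.12), Id1 (−1.02) and Tagln (−1.01), with Snai1 at −0.94. The genes below the like-signal range were the same 5 as in the untreated arrays, where 2.48% of all clusters lay below it. With all arrays together, each of the 9 genes had its 4 CHO-K6 signals below both CHO-K1 signals, a pattern that 21.1% of all clusters and 25% of those with a mean signal of 6 or more showed. The arrays of a line differ in treatment and are not replicates of each other.

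**Figure D2:**
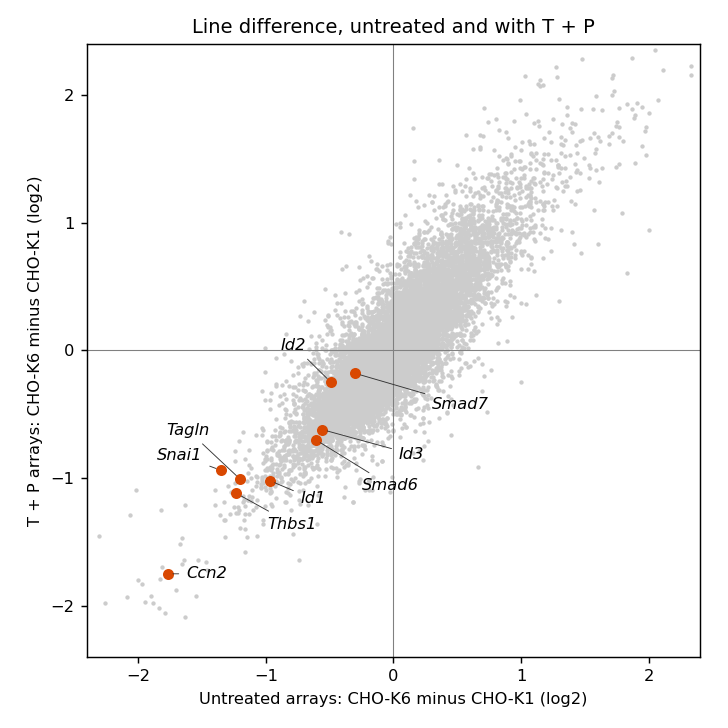
Difference between the lines, CHO-K6 minus CHO-K1 on the log2 scale, for the untreated arrays (horizontal axis) and the arrays with trastuzumab + pertuzumab, T + P (vertical axis), with the 9 genes in orange and the clusters whose mean log2 signal reached 6 in grey, those beyond 2.4 in either direction not drawn. The 9 genes all lie below 0 on both axes, Ccn2 farthest at −1.77 and −1.75.

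Ccn2 and Thbs1, which encode secreted proteins of the extracellular matrix, had the widest gaps among the 9 genes between the lowest CHO-K1 and the highest CHO-K6 array, and the smallest spans within CHO-K6. Ccn2, also known as connective tissue growth factor, had log2 signals of 9.61 untreated and 9.60 with trastuzumab + pertuzumab in CHO-K1. In CHO-K6 its signal was 7.84 untreated, 7.82 with trastuzumab, 7.91 with pertuzumab and 7.85 with trastuzumab + pertuzumab. The CHO-K6 arrays thus lay within 0.09 of each other and 1.69 or more below CHO-K1. The untreated difference of −1.77 is a 3.41-fold lower signal, and 29 of 14499 clusters with a mean signal of 6 or more had a difference that low. Thrombospondin 1 (Thbs1), a glycoprotein known to release TGF-beta from its latent form, stood at 10.84 untreated and 10.74 treated in CHO-K1. In CHO-K6 its signals were 9.61 untreated, 9.57 with trastuzumab, 9.64 with pertuzumab and 9.62 with the combination, a span of 0.07. Its untreated difference was −1.23, or 2.35-fold lower, against a like-signal range of −0.79 to 0.76. Ccn2 and Thbs1 were the genes among the 9 whose lowest CHO-K1 array was 2-fold or more above the highest CHO-K6 array, which 0.239% of all clusters showed.

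Tagln encodes transgelin, an actin-binding protein of smooth muscle and of contractile fibroblasts. Its log2 signals were 7.93 untreated and 7.95 treated in CHO-K1. In CHO-K6 they were 6.73 untreated, 7.16 with trastuzumab, 7.11 with pertuzumab and 6.94 with the combination, so that the untreated CHO-K6 array was the lowest of all. The difference between the untreated lines was −1.20, or 2.30-fold lower, and the narrowest gap between the lines was 0.77. Snai1, a zinc finger repressor of the E-cadherin gene that acts in epithelial-mesenchymal transition, had signals of 8.57 untreated and 8.34 treated in CHO-K1. Its CHO-K6 signals were 7.22 untreated, 7.23 with trastuzumab, 7.55 with pertuzumab and 7.40 with the combination. The untreated arrays differed by −1.35, or 2.55-fold, and the arrays with the combination by −0.94, so that the line difference of Snai1 was 0.41 smaller with the antibodies, the largest such shift among the 9 genes. Cdh1, the E-cadherin gene, had signals between 5.86 and 6.49 and was also lower in untreated CHO-K6, by −0.63.

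The ID proteins are helix-loop-helix proteins that lack a DNA-binding region and hold back the basic helix-loop-helix factors they pair with. Id1 had log2 signals of 8.47 untreated and 8.87 treated in CHO-K1. In CHO-K6 it stood at 7.50 untreated, 7.52 with trastuzumab, 7.69 with pertuzumab and 7.85 with the combination. Its line difference was −0.97 untreated and −1.02 with the combination, and the lines stayed 0.62 apart at the narrowest point. The signals of Id2 were 7.98 and 8.00 in CHO-K1, and 7.49 untreated, 7.40 with trastuzumab, 7.74 with pertuzumab and 7.75 with both antibodies in CHO-K6. Its line difference was −0.49 untreated and −0.25 with the combination, both within the like-signal range. For Id3, CHO-K1 signals were 10.45 untreated and 10.85 treated, and CHO-K6 signals were 9.89 untreated, 9.90 with trastuzumab, 10.36 with pertuzumab and 10.23 with the combination. The pertuzumab array of CHO-K6 thus came within 0.09 of untreated CHO-K1. Its line difference was −0.56 untreated and −0.62 with the combination.

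The inhibitory SMADs block receptor signaling from inside the cell, SMAD6 mainly that of BMP and SMAD7 that of both TGF-beta and BMP. Smad6 had log2 signals of 7.55 untreated and 7.85 treated in CHO-K1, and of 6.94 untreated, 6.91 with trastuzumab, 7.51 with pertuzumab and 7.15 with both antibodies in CHO-K6. The difference between the untreated lines was −0.61. The pertuzumab array lay 0.04 below untreated CHO-K1. Smad6 alone among the 9 genes has a second transcript cluster, which was dimmer and also lower in untreated CHO-K6, at 6.48 against 6.79. That cluster read 6.38 with pertuzumab, a difference of −0.10 from untreated CHO-K6 where the brighter cluster had 0.57. The high pertuzumab signal of Smad6 therefore rests on 1 of its 2 clusters. Smad7 was the dimmest of the 9, close to the array medians, with 6.13 and 5.94 in CHO-K1 and 5.83 untreated, 5.61 with trastuzumab, 5.85 with pertuzumab and 5.76 with both antibodies in CHO-K6. Its line difference of −0.30 was the smallest.

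To see whether the antibodies moved these genes in HER2-expressing cells, each treated CHO-K6 array was set beside the untreated CHO-K6 array, which the 3 comparisons share. None of the 9 genes reached a difference of 1.5-fold, and so none of 2-fold, in any of them. Trastuzumab did so for few transcripts, with 0.737% of all clusters lower and 0.576% higher by 1.5-fold or more. Trastuzumab left the 9 genes near the untreated array, with a median difference of −0.02, 5 genes below 0 and 4 above, where 48.1% of all clusters lay below 0. Ccn2, Thbs1, Id1, Id3, Smad6 and Snai1 were all within 0.04 of untreated CHO-K6, and Id2 lay at −0.09. Tagln had the largest difference, 0.43, and was the gene of the 9 above its like-signal range of −0.31 to 0.38, as 2.46% of all clusters were. Smad7 had the lowest value, −0.22.

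On the pertuzumab array each of the 9 genes was above its untreated CHO-K6 signal, where 54.7% of all clusters were, while 2.94% of all clusters were lower and 1.41% higher by 1.5-fold or more. The median was 0.25 against 0.04 over all clusters. Smad6 (0.57, or 1.48-fold, on its brighter cluster) and Id3 (0.47, or 1.39-fold) exceeded their like-signal ranges, whose upper bounds were 0.50 and 0.40, as 2.46% of all clusters did. Tagln (0.38), Snai1 (0.33), Id2 (0.25) and Id1 (0.19) lay within theirs. Ccn2 (0.07), Thbs1 (0.03) and Smad7 (0.02) were close to untreated CHO-K6. Set on the distance from untreated CHO-K6 to untreated CHO-K1, the pertuzumab array stood at 93.4% of the way for the brighter Smad6 cluster, at 83.9% for Id3 and at 51.0% for Id2. It stood at 31.7% for Tagln, 24.4% for Snai1 and 19.6% for Id1, but at 6.67% or less for Smad7, Ccn2 and Thbs1. The untreated CHO-K6 array enters both distances, so that its own deviation acts on each of these shares.

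On the combination array 8 of the 9 genes exceeded their untreated CHO-K6 signal, where 50.3% of all clusters did, and the median difference was 0.21 against 0.01 over all clusters. A difference of 1.5-fold or more was found for 0.896% of all clusters on the lower side and for 0.657% on the higher. The ID genes led, with 0.35 for Id1, 0.34 for Id3 and 0.26 for Id2, each above its like-signal range, as 2.46% of all clusters were. Tagln and Smad6 followed with 0.21 each and Snai1 with 0.18, within their ranges. Ccn2 and Thbs1 stood at 0.01, and Smad7 was the exception at −0.07. The combination array reached 60.7% of the way from untreated CHO-K6 to untreated CHO-K1 for Id3, 53.1% for Id2, 36.1% for Id1 and 34.4% for Smad6. For Ccn2 and Thbs1 it reached less than 1% of that way.

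**Figure D3:**
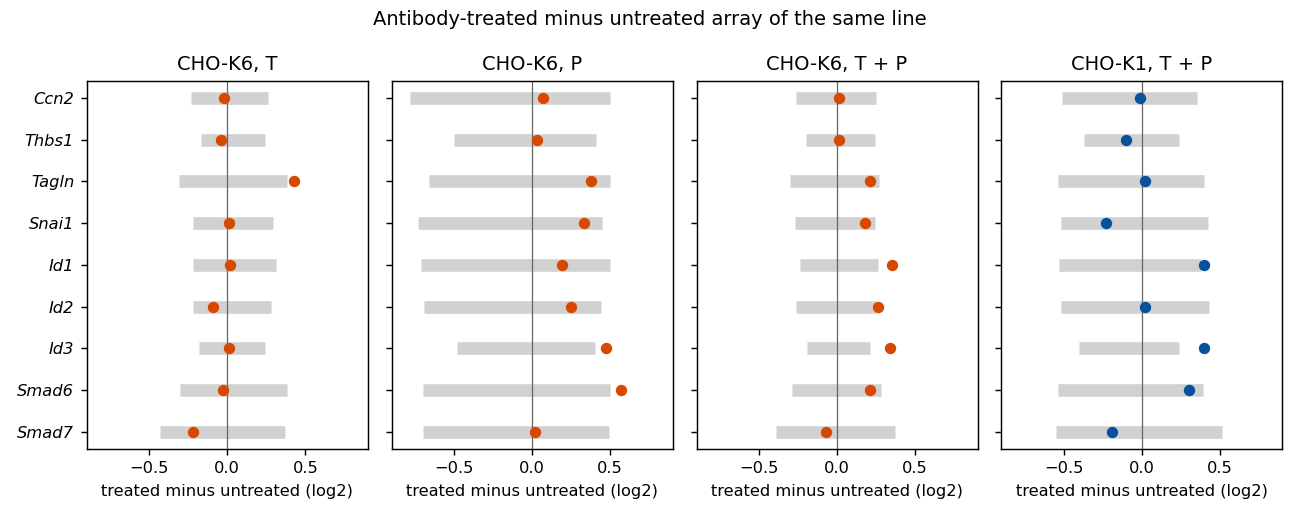
Difference of each antibody-treated array from the untreated array of the same line (horizontal axes, log2 scale) for the 9 genes, in 4 panels with 1 array pair each (T, trastuzumab, P, pertuzumab). Grey bars are the like-signal ranges of the 500 clusters of closest mean signal. Id1 and Id3 lie beyond their bars in both panels with T + P, Id3 and Smad6 with P, and Tagln with T, while Ccn2 and Thbs1 lie within 0.10 of 0 in all panels.

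CHO-K1 carries no human HER2 transgene according to its label, and its arrays are separate from those of CHO-K6. With trastuzumab + pertuzumab, 5 of the 9 genes were above untreated CHO-K1 and 4 below, where 52.5% of all clusters lay above, and the median was 0.02. None of the 9 reached 1.5-fold, where 1.57% of all clusters were lower and 1.44% higher to that extent. Id1 and Id3 were each higher by 0.40, or 1.32-fold, and were the genes of the 9 above their like-signal ranges, as 2.46% of all clusters were. Smad6 was higher by 0.30, within a range that ended at 0.39, and its dimmer cluster by 0.13. Id2 and Tagln (0.02 each) and Ccn2 (−0.01) lay near 0, and Thbs1 (−0.10), Smad7 (−0.19) and Snai1 (−0.23) were lower. Id1 and Id3 were therefore higher with the combination by 0.34 to 0.40 in both lines, in comparisons that share no array. Id2 differed by 0.26 in CHO-K6 and by 0.02 in CHO-K1, and Snai1 by 0.18 and −0.23. With 1 array pair per line, a difference between the lines in the response could not be tested.

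Many other transcripts moved together in these arrays. Across the 14499 clusters whose mean log2 signal reached 6, the combination difference in CHO-K1 and the pertuzumab difference in CHO-K6 had a Pearson's r of 0.633, although they share no array. With that same CHO-K1 difference, the combination difference in CHO-K6 had an r of 0.196 and the trastuzumab difference one of −0.06. These are correlations across genes, which are not independent replicates. The part of this shared movement in the values of Smad6 and Id3 with pertuzumab was not tested.

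**Figure D4:**
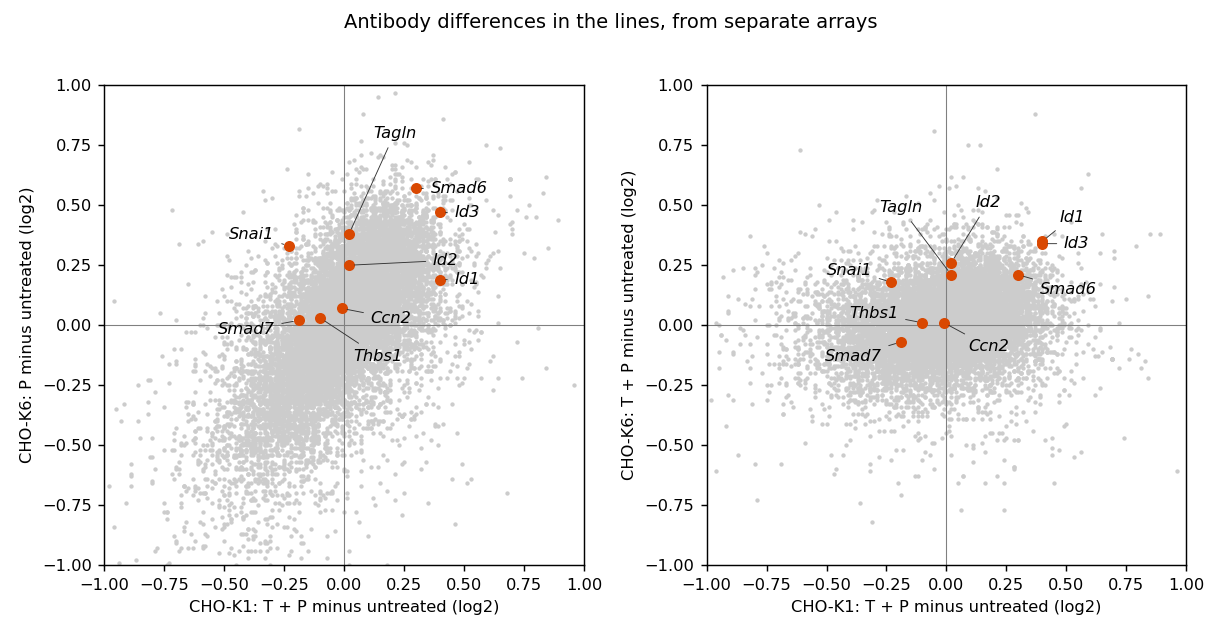
Differences on the log2 scale in CHO-K6 with pertuzumab (left panel, vertical axis) and with trastuzumab + pertuzumab (right panel, vertical axis), against the difference in CHO-K1 with trastuzumab + pertuzumab (horizontal axes). The 9 genes are in orange and the clusters whose mean log2 signal reached 6 in grey, those beyond 1 in either direction not drawn. Id1, Id3 and Smad6 lie to the upper right in both panels, and Ccn2 and Thbs1 near the origin.

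The antibodies were also compared with each other in CHO-K6. Pertuzumab gave higher signals than trastuzumab for 8 of the 9 genes, where 55.7% of all clusters were higher, with a median of 0.24. The brighter cluster of Smad6 differed by 0.60 and so passed a 1.5-fold threshold, which 1.46% of all clusters did on this side, and Id3 by 0.46, Id2 by 0.34, Snai1 by 0.32 and Smad7 by 0.24. The dimmer Smad6 cluster differed by −0.14, opposite in sign. The brighter Smad6 cluster and Id3 exceeded their like-signal ranges, as 2.46% of all clusters did. Tagln was the exception, at −0.05. The combination array was above the trastuzumab array for 8 of the 9 genes, where 49.2% of all clusters were higher, and below it for Tagln (−0.22). Id2 (0.35), Id1 (0.33) and Id3 (0.33) differed most, all 3 beyond their like-signal ranges as 2.45% of all clusters were. Against pertuzumab alone, the combination array was lower for 7 of the 9 genes, where 54.1% of all clusters were lower, most so for the brighter Smad6 cluster (−0.36) and Tagln (−0.17). The dimmer Smad6 cluster was higher by 0.20. Id1, at 0.16, and Id2, at 0.01, were also higher on the combination array, both within their like-signal ranges. Ccn2 and Thbs1 differed by 0.09 or less between any of the antibody-treated CHO-K6 arrays.

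Among themselves, the 9 genes had differing profiles across the arrays. The profiles were centred but not scaled, so a distance reflects the size of the differences as well as their direction. With each gene centred on its own mean over the 6 arrays, the closest pair was Id3 and the brighter Smad6 cluster, at a Euclidean distance of 0.181 on the log2 scale. The dimmer Smad6 cluster differed by −0.10 with pertuzumab in CHO-K6, where Id3 differed by 0.47. The closeness of this pair therefore rests on 1 of the 2 Smad6 clusters, and the distance of the dimmer one was not calculated. Thbs1 and Snai1 were next, at 0.264, and Id2 and Smad7 after them, at 0.319. Id1 lay nearer to Thbs1 (0.471) than to Id3 (0.602) or Id2 (0.793). Ccn2 was the farthest from the rest, with Thbs1 as its nearest member at 0.662. For the 5 genes whose signals spanned 1 or more, the 3 most similar profiles were looked up among 9095 genes whose mean log2 signal reached 6. For Ccn2 they were LOC100769250, Gbgt1 and the calcitonin receptor gene Calcr, at distances of 0.180 to 0.209. Those of Thbs1 were Soat1 (0.106), Vrk1 and Gla, those of Tagln were Daxx, C1s and Ppp1r13b, those of Snai1 were Tnfaip2 (0.167), LOC103162998 and Fkbp11, and those of Id1 were Dlx2, Loxl4 and Fam136a. None of the other 8 target genes was among the 3 nearest profiles of any of them. Smad7, with a mean signal of 5.85, was not among the genes searched. With 3 places for 9095 genes, this absence says little about how alike the target genes are.

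For the measured genes upstream in the pathway, the median differences between the untreated lines were −0.06 for ligands and −0.04 for receptors. The 9 were chosen with earlier results known, so a contrast with them is description only. Of 21 listed ligand genes 14 were measured, and of 16 listed receptor genes 13. Several ligand genes were dim, such as Bmp5 and Bmp2 with mean log2 signals of 3.34 and 4.07, so the supply of ligands and receptors was not fully covered. Of 14 measured ligand genes none was 2-fold apart, where 0.63% of all clusters were lower and 1.47% higher to that extent. At those shares, finding none in a short list says little. Tgfb3 had a difference of −0.44, with signals of 7.46 in CHO-K1 and 7.02 in CHO-K6, and Bmp6 had 0.22. Between the arrays with the combination, Tgfb3 differed by −0.73 and Bmp6 by −0.02. Bmp7, a dim gene at 5.21 in untreated CHO-K6, was higher by 0.60 on the combination array and by 0.60 on the pertuzumab array. It was the ligand gene that passed 1.5-fold there, as 0.657% and 1.41% of all clusters did on the higher side. In CHO-K1 it was higher by 0.28 with the combination. Of 13 receptor genes, Tgfbr3, which encodes the co-receptor betaglycan, was higher in CHO-K6, by 0.92 untreated (9.43 against 10.35) and by 1.10 with the combination. Tgfbr1, the type I receptor of TGF-beta, was higher by 0.44 and the BMP type I receptor gene Acvr1 lower by −0.40. With the combination, Tgfbr1 differed by 0.72 and Acvr1 by −0.44 between the lines. The signaling SMADs, all 6 of them measured, had a median of −0.27. Smad9 (−0.54) and Smad1 (−0.40), both of the BMP branch, and Smad3 (−0.39), of the TGF-beta branch, had all 4 CHO-K6 arrays below both CHO-K1 arrays, as 21.1% of all clusters did.

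Genes that restrain the pathway went in both directions. Of 13 measured genes of extracellular inhibitors and latency proteins, Chrdl1 was 2-fold higher in untreated CHO-K6, as 1.47% of all clusters were. It encodes a secreted BMP antagonist related to chordin. Its signals were 4.94 and 5.05 in CHO-K1 and 6.71 to 6.80 in CHO-K6, a difference of 1.77 untreated and of 1.75 with the combination. Nbl1, another BMP antagonist, was lower by −0.50, and Fstl3, which binds activins, was higher by 0.39 untreated and by 0.06 with the combination, with arrays that overlapped between the lines. Ltbp1, a latency protein, was also higher by 0.39 untreated and by 0.21 with the combination, with all 4 CHO-K6 arrays above CHO-K1. Of 12 intracellular brakes none differed 2-fold, which says little in a list this short. Skil, a SMAD corepressor, lay at −0.74 and the pseudoreceptor gene Bambi at 0.57. With the combination Bambi differed by 0.05 between the lines. Smurf2, which encodes a ubiquitin ligase of the pathway, was also at 0.57 untreated and was at 0.80 with the combination. For Bambi and Smurf2 all 4 CHO-K6 arrays lay above both CHO-K1 arrays, as for 15.9% of all clusters, and the arrays of Skil overlapped between the lines.

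Other genes known to respond to these pathways had medians nearer 0 than the 9. The 9 were also chosen with earlier results known, so this contrast is description and no test. Of 19 measured further TGF-beta targets, 1 was lower by 2-fold or more, where 0.63% of all clusters were. This was the collagen gene Col3a1 (−1.15, 8.57 against 7.42), and the median of the list was −0.18. Bhlhe40 was at −0.90. The 10 further BMP targets had a median of −0.26 and none was 2-fold apart, which says little in a list this short. Bambi lay at 0.57 and Hes1, a Notch target as well, at −0.55. Of 15 genes of SRF and actin, Cnn1 alone was 2-fold lower (−1.42), from 5.35 to 3.93, and Myl9 and Zyx lay at −0.49 each. The 14 genes of YAP and TEAD, another route to Ccn2 and Thbs1, had a median of −0.05, with Amotl2 at 0.64 and Ankrd1 at −0.54. Of 10 matricellular and thrombospondin-related genes, Thbs3 was lower by −1.63 and Cd36, a receptor of thrombospondin 1, by −1.48 at signals below 6. The osteopontin gene Spp1 was higher by 0.96 and Sparc lay at −0.40. Among 5 measured partners of the ID proteins, Tcf3 had −0.67 and Tcf4 had 0.31. The lists overlap in some genes, and their members were not chosen without knowledge of earlier results on these arrays.

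**Figure D5:**
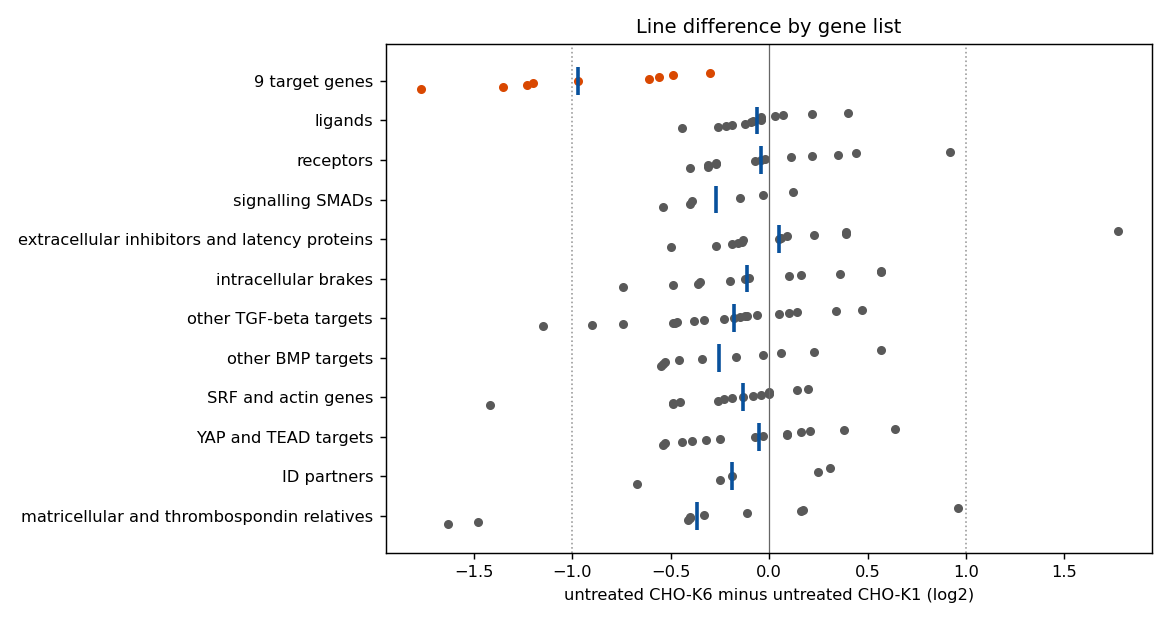
Difference between the untreated lines, CHO-K6 minus CHO-K1 on the log2 scale (horizontal axis), for the 9 target genes in orange and for each list of related genes in grey, with 1 point per gene and a blue bar at the median. Dotted lines mark 2-fold. The median of the 9 genes is −0.97, and the medians of the other lists lie between −0.37 and 0.05.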

How the data were processed

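RNA was labelled and hybridized to Affymetrix CHO Gene ST arrays, 1 per condition. The authors made log2 signals per transcript cluster with the Affymetrix Transcriptome Analysis Console before depositing them, and the labels name Expression Console as well. The normalization method and genome build are not given in the sources used here, and both can affect small differences. The deposited log2 signals were used unchanged. The series matrix table holds the same signals, within 0.005, and 1234 further clusters. Symbols came from the platform annotation, which gives 1 symbol to 16481 clusters, several to 793 and none here to 12426. All 9 genes have an identifier that RefSeq holds. Differences are between 2 arrays, with no test, and the number of arrays limits the precision. The named genes are the 9 members and, per list, genes 2-fold apart in a comparison and with 1 of its log2 signals at 6 or above, or, where fewer than 2 passed, the 2 of such signal farthest apart between the untreated lines. Smad3, Bmp7, Cd36, Cnn1, Smurf2, Ltbp1 and the cell type markers were named after their values were seen. Members and lists were chosen with earlier results of these data known. Calculations were tested on simulated data. Python 3.11.15, NumPy 2.4.6, pandas 2.3.3 and matplotlib 3.10.9 were used.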

Additional observations from a re-analysis of the deposited data

Results flagged for a closer look

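For 3 of the 9 genes the difference between trastuzumab + pertuzumab and untreated had opposite signs in the lines, each from 1 array pair, and the difference between the lines was not tested. Of all clusters, 50.3% lay above 0 in CHO-K6 and 52.5% in CHO-K1. The share of all clusters with opposite signs was not calculated, so the count is no finding about these 9 genes. Snai1 differed by 0.18 in CHO-K6 and by −0.23 in CHO-K1, which is 0.41 apart. Thbs1 differed by 0.01 and −0.10, or 0.11 apart, and Ccn2 by 0.01 and −0.01, or 0.02 apart, both close to 0 in either line.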

How the results depend on the processing

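Quantile normalization, the series matrix table, the mean over all clusters of a gene, a minimum log2 signal of 6 and the mean in place of the median moved no median of the 9 genes by more than 0.1 on the log2 scale and no count by more than 1.5 times, though the median for trastuzumab, near 0, lay on either side of it, from −0.04 to 0.01. At a 1.5-fold threshold, 7 in place of 4 genes counted as lower in CHO-K6 between the arrays with trastuzumab + pertuzumab. When each treated CHO-K6 array was set against the mean of the remaining treated ones, the median was −0.245 in place of −0.02 for trastuzumab and 0.015 in place of 0.21 for the combination. Averaging both Smad6 clusters moved its differences by up to 0.335. Leaving out the CHO-K6 array of pertuzumab alone, an alternative chosen after seeing the data, could not change the count of genes with all CHO-K6 arrays below CHO-K1, and so says nothing about its stability. No paired analysis was possible because each condition has 1 array. With 1 array per condition, differences between conditions and between single arrays cannot be told apart, and Smad7 lies near the array medians.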
